A study of Homo sapiens with 3 samples.

Results

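The genes of the tumour necrosis factor (TNF) ligand and receptor superfamilies were examined in H1975 cells and in their osimertinib-resistant derivatives OR1 and OR2. Members were chosen by symbol alone, as every gene of the array named TNF, LTA, LTB, FAS, FASLG, CD40, CD27, CD70 or with a TNFSF or TNFRSF number. This gave 40 of the 43316 genes, 24 receptors and 16 ligands, on 54 probes. H1975 (NCI-H1975) is a non-small cell lung cancer line with mutant EGFR that is sensitive to osimertinib, an inhibitor of that receptor. OR1 and OR2 were each derived from H1975 by raising osimertinib in steps to 2 μmol/L over 4 months, in separate flasks, and the labels name no other change to the cells. The study's methods call each a clone, and whether osimertinib was in the medium at harvest is not given in the sources used here. Total RNA of each line was hybridised to 1 single-colour array, so there is no replicate of a line, each ratio compares 1 culture with 1 culture, and no p-value can be given for it. OR1 and OR2 were compared with the same H1975 array, so their ratios to it are not independent.

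TNF superfamily ligands are mostly trimeric membrane proteins that can be shed, and they act by clustering their receptors. Receptors with a death domain recruit TRADD or FADD and can start caspase-8 cleavage. The others bind TRAF adaptors and lead to NF-kappaB and MAP kinase signalling, which is not limited to them. Decoy receptors bind ligand without passing on a death signal. Many members are known from lymphoid and myeloid cells, and epithelial tumours usually carry the TRAIL receptors, FAS and TNFRSF12A.

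Array-wide, 45.6 to 45.9% of the 58200 probes were well above background by the scanner software's own call, which is named detected here, in the 3 lines, and no spot was saturated. The 75th percentile of intensity on which each array was scaled was between 138 and 162 arbitrary units. All 6 epithelial markers (EPCAM, CDH1, KRT7, KRT8, KRT18 and KRT19) were detected in every line, but their summed intensity was 390544, 147897 and 172181 in H1975, OR1 and OR2, with EPCAM, CDH1, KRT7 and KRT19 at a ratio of 0.5 or below in both resistant lines. Of 7 leukocyte markers, CD3E, MS4A1 and ITGAM were undetected, and PTPRC, which all leukocytes carry, was at 21.0, 20.7 and 20.5 in the same order. The summed leukocyte intensity was 663, 1231 and 2189, with CD14 at 264, 984 and 1779. Of 8 fibroblast markers 3, 3 and 1 were detected (summed intensity 692, 690.2 and 110.2), with COL3A1, DCN, PDGFRA and THY1 dim on every array. The sums hide differing changes, with COL1A1 at 461, 585 and 86.8 and COL1A2 at 199.7, 28.3 and 5.65. LUM was detected in OR1 alone (2.5, 59.8 and 2.53) and FAP in H1975 alone (16.8, 2.73 and 2.95). Of 5 endothelial markers 3 were detected in each line (97, 104 and 110.1), with KDR and CLDN5 dim. The part of these marker differences in the results below was not tested.

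Of the 40 members, 29 were detected on at least 1 array and 21 on all 3. At the ratio of 2 or above named in the study's methods, 7 of the 28 members with a level in H1975 or OR1 were higher in OR1, which is 25.0% beside 9.17% of all genes. In OR2, 5 of 29 members were higher (17.2%, beside 7.72% of all genes). At a ratio of 0.5 or below, 3 members were lower in OR1 (10.7%, beside 9.58% of all genes) and 2 in OR2 (6.9%, beside 8.7%). The members past 2 in both lines were LTB, TNFRSF11B, TNFSF10, TNFRSF9 and TNFSF13, 17.2% of 29 beside 5.09% of all genes, and those at 0.5 or below in both were TNFRSF12A and TNFRSF18, 6.9% beside 6.32%. The shares of lower members were thus near the background. TNF and CD70 were past 2 and FAS at or below 0.5 in OR1 but not in OR2. TNF, LTB, TNFRSF9 and TNFRSF11B were dim in H1975, and such a member enters the shares only by its level in a resistant line. Of the 21 members detected on all 3 arrays, 3 were past 2 in OR1, 2 in OR2 and 2 in both. The shares of all genes were then 7.74, 6.67 and 4.78%. A lower level in every cell and fewer cells with the transcript cannot be told apart in RNA of a whole culture. The ratio is taken after scaling, and where a probe was not well above background in a line, that line was set to the lowest intensity called well above background on its array (11.4 to 12.6), or to the probe's own if higher, so that the ratio is a bound.

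**Figure D1:**
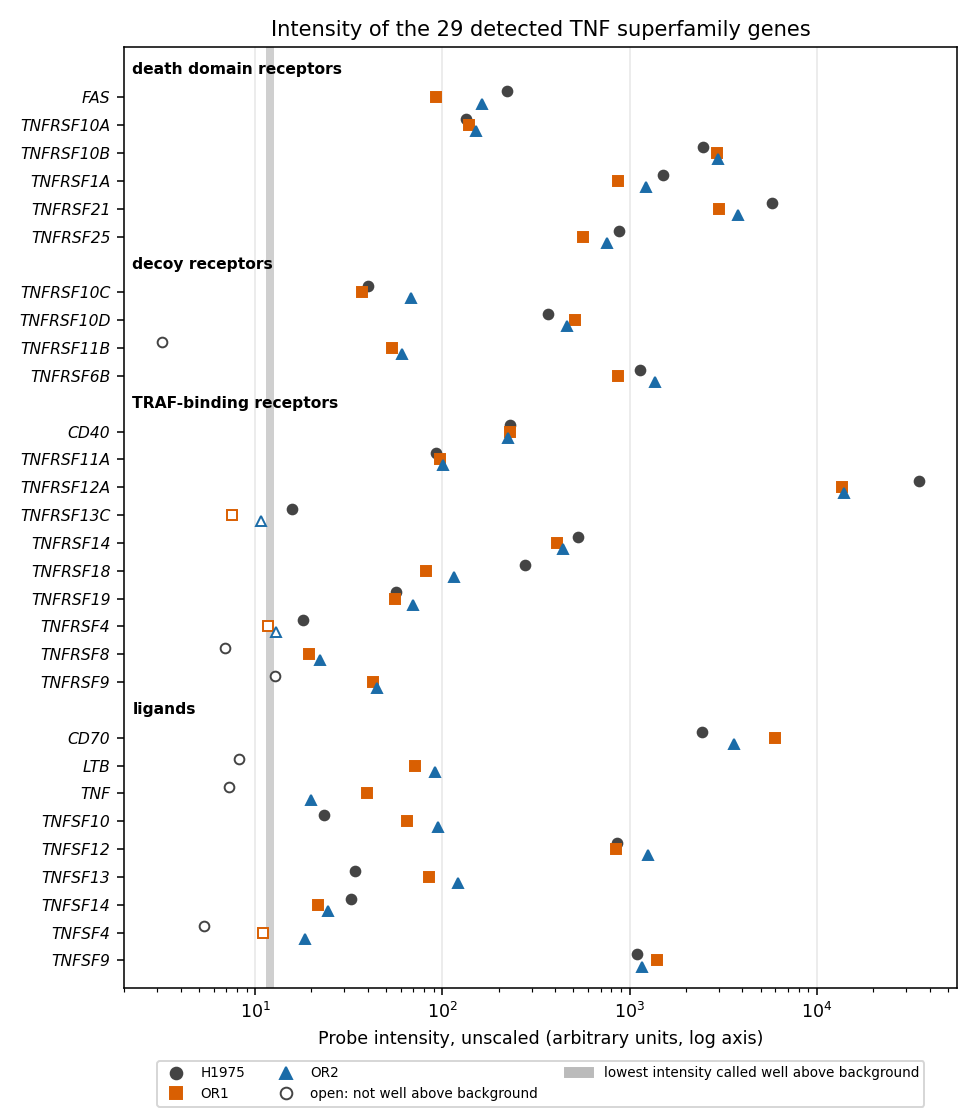
Unscaled probe intensity (x axis, arbitrary units, log scale) of the 29 detected members, 1 row a gene, grouped by role. Circles stand for H1975, squares for OR1 and triangles for OR2, open symbols are not well above background, and the grey band is the lowest intensity called well above background (11.4 to 12.6); LTB, TNFRSF11B, TNF and TNFRSF9 are open in H1975 and filled in both resistant lines.

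Receptors with a death domain were all detected in all 3 lines, and 1 of the 6 passed the ratio in either line. That receptor was at 0.5 or below in OR1, as were 9.58% of all genes, which is little to go by with 6 receptors. FAS, the receptor of FAS ligand, had intensities of 222, 92.0 and 163 in H1975, OR1 and OR2. It was thus lowest in OR1, at a ratio of 0.473 (technical SD of the log2 ratio 0.21, from the scanner software's spot errors), and 0.714 in OR2. With normexp the ratio in OR1 was 0.604 and no longer passed, and with the median over probes the lines had 0.485 and 0.551. A second FAS probe, at 126, 53.5 and 71.2, gave these same 0.485 and 0.551, and the remaining probe, which was dim in OR1, had at most 0.636 and 0.835.

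TNFRSF1A, the main TNF receptor of epithelial cells, was at 1504, 869.8 and 1222 in H1975, OR1 and OR2 (ratios 0.66 and 0.791). TNFRSF21, a receptor known from neurons and T cells, was at 5737, 2994 and 3809 (0.595 and 0.646). TNFRSF25, the receptor of TNFSF15, was at 878, 562 and 755 (0.731 and 0.837). These 3 and FAS were below H1975 in both lines without a ratio of 0.5 in both. The death receptors for TRAIL lay slightly above H1975, although in OR1 they were below it when the arrays were scaled on the spike-in probes (0.784 for TNFRSF10A and 0.895 for TNFRSF10B). TNFRSF10A was at 134, 139 and 152 (1.18 and 1.11), and TNFRSF10B was at 2473, 2932 and 2949.9 (1.35 and 1.16). The median log2 ratio of the 6 was -0.53 in OR1 and -0.3 in OR2, beside 0.04 and -0.06 over all genes.

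Of the 4 decoy receptors 1 passed the ratio, upward in both lines, as did 5.09% of all genes. A count out of 4 is little to go by. TNFRSF11B, osteoprotegerin, is a secreted decoy that binds TNFSF11 and TRAIL, and its intensities in H1975, OR1 and OR2 were 3.18, 54.1 and 60.7. It was undetected in H1975 and detected in both resistant lines, so the ratios are bounds, at least 4.91 for OR1 and at least 4.7 for OR2. This probe (hg19, chr8:119936720-119936779, minus strand) was printed on 10 spots of each array. The spots ranged from 2.53 to 6.1 in H1975, with 0 of 10 detected, from 48.6 to 62.2 in OR1 and from 53.8 to 72.4 in OR2, with 10 of 10 detected in each. The SD between spots was 0.12 on the log2 scale in OR1 and 0.14 in OR2. The spots of H1975 therefore did not overlap with those of either resistant line, which is a statement on spots of 1 RNA and not on cultures.

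TNFRSF6B, a secreted decoy for FASLG and TNFSF14, was at 1138, 866 and 1372 in H1975, OR1 and OR2 (ratios 0.867 and 1.17). Its second probe was at 319.8, 214 and 346 (0.763 and 1.05). TNFRSF10C, a membrane decoy for TRAIL without an intracellular domain, was at 40.2, 37.0 and 67.6 (1.05 and 1.63). It was highest in OR2 on these arrays. TNFRSF10D, whose death domain is truncated, was at 367, 512 and 463 (1.59 and 1.23).

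TRAF-binding receptors held changes in both directions. Of the 14, 10 were detected, TNFRSF9 was past 2 in both lines, and TNFRSF12A and TNFRSF18 were at 0.5 or below in both. Over all genes 5.09% were past 2 and 6.32% at 0.5 or below in both, and counts of so few receptors are little to go by. TNFRSF12A, the receptor of TWEAK (TNFSF12), was at 35181, 13588 and 14013 in H1975, OR1 and OR2. Both resistant lines were low and close to each other, with ratios of 0.44 and 0.388 (technical SD 0.2) from a probe at hg19 chr16:3072180-3072239, plus strand. TNFRSF18 (GITR), a costimulatory receptor of regulatory T cells, was at 276, 81.3 and 116. It too was low in both resistant lines, with ratios of 0.336 and 0.411 (technical SD 0.21). The file gives that probe as hg19 chr1:1139819-1140761, minus strand, a span longer than the other probes here.

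TNFRSF9 (CD137), a costimulatory receptor that is known as an NF-kappaB target, was at 12.8, 42.7 and 45.0 in H1975, OR1 and OR2, and undetected in H1975. Both resistant lines lay above H1975, at least 3.82-fold in OR1 and at least 3.43-fold in OR2. Its probe is at hg19 chr1:7980723-7980782, minus strand, within the same 1p36 group of genes as TNFRSF18. CD40, the receptor of CD40LG on antigen-presenting and epithelial cells, was at 229, 230.2 and 223 (1.14 and 0.944), and its second probe at 139, 132 and 118 (1.08 and 0.827).

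The other TRAF-binding receptors did not pass the ratio. TNFRSF14, the receptor of TNFSF14, was at 533, 408 and 439 (0.873 and 0.803). A second TNFRSF14 probe was at 149, 146 and 141 (1.11 and 0.916), on the other side of 1 in OR1. TNFRSF11A (RANK), the receptor of TNFSF11, was at 92.6, 96.6 and 101 (1.19 and 1.06). TNFRSF19, which takes part in development, was at 56.7, 56.0 and 69.4 (1.13 and 1.19) on a probe named by an Ensembl transcript, and its other probe was dim on all arrays. These receptors differed little between the lines. TNFRSF8 (CD30), a lymphoma marker, was at 6.93, 19.4 and 22.2, undetected in H1975, with bounds of at least 1.76 and at least 1.72 that do not reach 2. TNFRSF4, a T-cell costimulatory receptor, was at 18.1, 11.7 and 12.9 and detected in H1975 alone (at most 0.736 and at most 0.695). TNFRSF13C, the receptor of BAFF on B cells, was at 15.8, 7.57 and 10.8 and likewise detected in H1975 alone (at most 0.825 and at most 0.779). The receptors together had 10 members below and 10 above H1975 in OR1, and the same numbers in OR2.

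**Figure D2:**
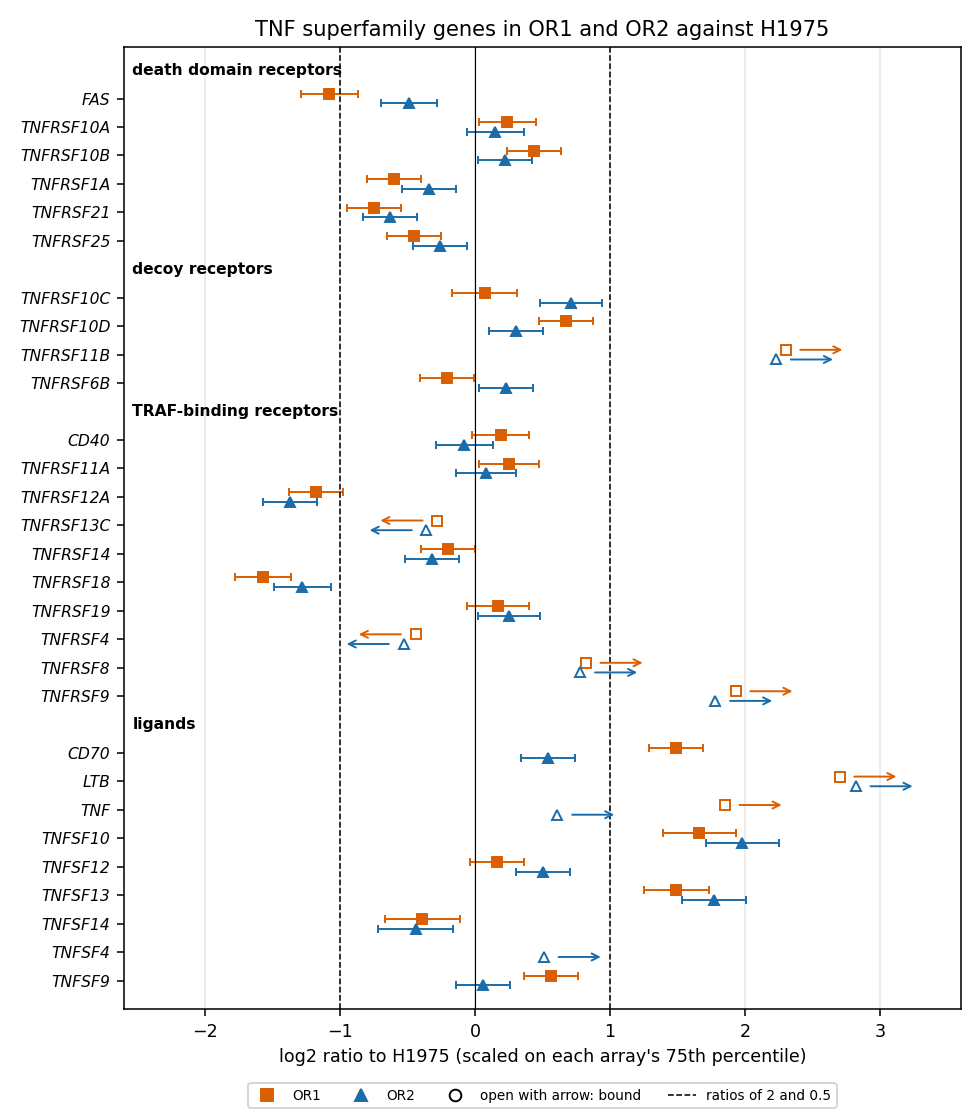
log2 ratio of OR1 (squares) and OR2 (triangles) to H1975 for the 29 members (x axis, after scaling on the 75th percentile); bars are the technical SD of 1 array pair, not a spread between cultures, open symbols with arrows are bounds, and dashed lines mark ratios of 2 and 0.5. TNFRSF11B, TNFRSF9, LTB, TNFSF10 and TNFSF13 lie past 2 in both lines and TNFRSF12A and TNFRSF18 lie past 0.5 in both.

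Of the 16 ligands, 9 were detected on at least 1 array. In OR1 5 of the 8 with a level were past 2 and in OR2 3 of 9, beside 9.17 and 7.72% of all genes. In either line 0 were at 0.5 or below, beside 9.58% of all genes in OR1 and 8.7% in OR2, which is little to go by with so few ligands. The median log2 ratio of the ligands was 1.49 in OR1 and 0.54 in OR2, with bounds taken at their value, beside -0.06 and 0.0 for the receptors. In OR1 the median of the ligands was 1.03 over those detected on all arrays, 0.9 under spike-in scaling, 0.68 with normexp, a model of background, and 0.38 with no background filter. A ligand that is dim in H1975 enters these numbers only if it is higher in a resistant line, so the medians cover detected ligands and not all 16.

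LTB, lymphotoxin beta, which anchors LTA in the membrane and signals through LTBR, had intensities of 8.22, 71.7 and 91.1 in H1975, OR1 and OR2. It was undetected in H1975 and at least 6.51-fold (OR1) and at least 7.06-fold (OR2) higher in the resistant lines (probe at hg19 chr6:31548335-31548394, minus strand). TNF, which lies beside LTB (probe at hg19 chr6:31545837-31545896, plus strand), was at 7.26, 39.8 and 19.8. It was highest in OR1, at least 3.61-fold above H1975, and the bound of at least 1.53 in OR2 did not reach 2. LTA, the remaining gene of that group, was undetected.

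TNFSF10 (TRAIL), the ligand of the 4 TNFRSF10 receptors and of TNFRSF11B, was at 23.4, 64.9 and 94.7 in H1975, OR1 and OR2. It was detected in all 3 lines and higher in both resistant ones, with ratios of 3.17 and 3.94 (technical SD 0.27) from a probe at hg19 chr3:172223866-172223925, minus strand. A second TNFSF10 probe, dim in H1975, was at 10.0, 32.0 and 45.0 (at least 2.91 and at least 3.48), and the remaining probe was dim on every array. TNFSF13 (APRIL), a ligand of the B-lineage receptors TNFRSF13B and TNFRSF17, was at 34.3, 84.5 and 121. It was higher in both resistant lines, with ratios of 2.81 and 3.42 (technical SD 0.24). Its probe spans hg19 chr17:7463468-7463709 on the plus strand.

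CD70, the ligand of CD27, was at 2425, 5984 and 3629 in H1975, OR1 and OR2. It was highest in OR1, with a ratio of 2.81, and intermediate in OR2 with 1.46 (technical SD 0.2, probe at hg19 chr19:6585867-6585926, minus strand). TNFSF9, the ligand of TNFRSF9 and a near neighbour of CD70, was at 1088, 1406 and 1169 (1.47 and 1.05). TNFSF14 (LIGHT), on the other side of CD70, was at 32.5, 21.7 and 24.6 (0.761 and 0.736). TNFSF12 (TWEAK) was at 861, 842 and 1253 (1.11 and 1.42), and its second probe at 32.1, 22.5 and 39.4 (0.8 and 1.19). TNFSF4, the ligand of TNFRSF4, was at 5.31, 11.0 and 18.4 and detected in OR2 alone, at least 1.42-fold above H1975.

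The 11 undetected members were TNFRSF1B, TNFRSF17, CD27, TNFRSF13B, LTA, FASLG, TNFSF8, TNFSF11, TNFSF18, TNFSF15 and TNFSF13B, at intensities from 2.58 to 11.7. Partners of several members named above are among them. CD27, the receptor of CD70, FASLG, the ligand of FAS, TNFSF18, the ligand of TNFRSF18, and TNFRSF13B and TNFRSF17, the receptors of TNFSF13, were not well above background in any of the lines. Both sides were detected in all 3 lines for TNFSF10 with its 4 TNFRSF10 receptors, TNFSF12 with TNFRSF12A, and TNFSF14 with TNFRSF14 and with its decoy TNFRSF6B. In OR1 and OR2 but not in H1975 this also held for TNFSF10 with TNFRSF11B, TNF with TNFRSF1A and TNFSF9 with TNFRSF9. In the TWEAK pair the receptor was at 0.44 and 0.388 of H1975 while the ligand TNFSF12 was at 1.11 and 1.42 (in OR1 0.738 under spike-in scaling, 0.977 with no scaling and 0.944 with the median over probes), and in the TRAIL group the ligand was at 3.17 and 3.94 while its 4 TNFRSF10 receptors were between 1.05 and 1.63 (in OR1 under spike-in scaling between 0.694 for TNFRSF10C and 1.05 for TNFRSF10D).

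Promoter sequences are shown for 5 of the 7 members past the ratio in both lines, to set their regulatory sequence beside their common direction. They are the 250 bases before the start site in RefSeq (GRCh38.p14, a different build from the probe positions), where 27 of the 40 members had an entry. 4 motifs were searched on both strands: the kappaB motif of NF-kappaB, the AP-1 motif TGANTCA, the E2 box CACCTG and the TATA motif TATAAA. Matches are in capitals, and each sequence reads 5′ to 3′ along the gene's strand.
TNFRSF9, chr1:7940840-7941089, minus strand: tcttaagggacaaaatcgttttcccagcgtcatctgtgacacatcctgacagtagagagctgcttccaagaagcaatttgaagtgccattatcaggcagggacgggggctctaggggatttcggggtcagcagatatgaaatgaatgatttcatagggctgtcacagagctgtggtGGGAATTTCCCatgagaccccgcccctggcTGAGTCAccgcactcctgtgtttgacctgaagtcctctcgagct
LTB, chr6:31582426-31582675, minus strand: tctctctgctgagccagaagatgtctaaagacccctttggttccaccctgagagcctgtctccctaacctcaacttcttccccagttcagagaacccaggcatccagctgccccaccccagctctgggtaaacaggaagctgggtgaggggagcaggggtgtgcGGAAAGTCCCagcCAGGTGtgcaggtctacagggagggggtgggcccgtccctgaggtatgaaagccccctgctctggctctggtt
TNFSF13, chr17:7558032-7558281, plus strand: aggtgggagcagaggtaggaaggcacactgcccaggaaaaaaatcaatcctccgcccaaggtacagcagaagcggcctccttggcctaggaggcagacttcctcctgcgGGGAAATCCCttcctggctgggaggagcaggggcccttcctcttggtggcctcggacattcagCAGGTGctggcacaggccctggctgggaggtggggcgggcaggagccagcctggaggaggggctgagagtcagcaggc
TNFSF10, chr3:172523431-172523680, minus strand: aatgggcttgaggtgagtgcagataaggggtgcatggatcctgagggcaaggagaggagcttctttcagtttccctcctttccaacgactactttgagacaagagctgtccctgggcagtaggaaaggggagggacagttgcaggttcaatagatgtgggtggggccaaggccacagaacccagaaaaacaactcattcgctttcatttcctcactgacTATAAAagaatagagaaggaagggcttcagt
TNFRSF18, chr1:1206593-1206842, minus strand: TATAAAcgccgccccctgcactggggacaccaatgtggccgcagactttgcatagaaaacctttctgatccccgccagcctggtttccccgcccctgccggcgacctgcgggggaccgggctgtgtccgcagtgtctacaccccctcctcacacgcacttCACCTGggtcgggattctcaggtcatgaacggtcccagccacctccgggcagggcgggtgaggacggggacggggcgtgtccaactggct

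TNFRSF9 held 2 overlapping kappaB matches, on opposite strands between positions -74 and -64 from the start, and an AP-1 match at -44 to -38. LTB held a kappaB match at -86 to -77 and an E2 box at -73 to -68, both on the opposite strand, and TNFSF13 held a kappaB match at -141 to -132 and an E2 box at -78 to -73. The window at a second listed start of TNFSF13 held none of the 4 motifs. TNFSF10 held only the TATA motif, at -31 to -26, and TNFRSF18 held an E2 box at -90 to -85 and the TATA letters at -250 to -245, at the far end of the window. Over the 27 members with an entry, 9 held the kappaB motif (33.3%, beside 11.8% of the 27305 genes in the table) and 5 the AP-1 motif (18.5%, beside 8.06%). The E2 box was in 12 (44.4%, beside 20.6%) and the TATA motif in 6 (22.2%, beside 13.0%). All 4 shares were above those of all genes, which was not tested. FAS, at 0.5 or below in OR1 alone, also held a kappaB match. So did LTA and TNFSF11, which were dim on all arrays, and TNFRSF14, TNFRSF19 and TNFSF14, which did not pass the ratio. TNFRSF11B, past 2 in both lines, was not among the members with a match to any of the 4 motifs. A match is a string of letters and not a measured binding site.

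OR1 and OR2 were then compared directly, which does not use the H1975 array. Of 27 members with a level in either line, 0 were past 2 in OR2 over OR1, beside 2.48% of all genes, and 1 was at 0.5 or below, beside 2.89%. This was TNF, at 39.8 in OR1 and 19.8 in OR2, with a ratio of 0.424 and a technical SD of 0.32 (log2). The ratio no longer passed under spike-in scaling (0.675) or with normexp (0.702). CD70 lay just inside the limit with 0.518. The median log2 ratio of OR2 over OR1 was -0.04 over the members and -0.07 over all genes. The members past the ratio in both lines had OR2 over OR1 between 0.88 and 1.25, at 0.957 for TNFRSF11B, 0.899 for TNFRSF9, 1.09 for LTB, 1.25 for TNFSF10, 1.22 for TNFSF13, 0.88 for TNFRSF12A and 1.22 for TNFRSF18. Under spike-in scaling all 7 were above 1, at 1.52, 1.43, 1.73, 1.98, 1.94, 1.4 and 1.95 in the same order, so TNFRSF11B, TNFRSF9 and TNFRSF12A changed side, as they did with no scaling (1.12, 1.05 and 1.03). FAS had an OR2 over OR1 of 1.51 on its brightest probe, 1.14 with the median over probes and 2.41 under spike-in scaling.

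The rest of the pathway was described by 4 lists. Of 7 relatives of the family under other symbols, 4 were detected and 0 passed the ratio in both lines, beside 5.09% of all genes past 2 and 6.32% at 0.5 or below. LTBR, the receptor of the LTA and LTB trimer, was at 1123, 1345 and 1304 (1.37 and 1.13), and CD40LG, the ligand of CD40, was dim on all arrays. Of 37 genes of receptor-proximal signalling (adaptors, caspases, ubiquitin ligases and kinases), all were detected on at least 1 array. In both lines 1 was past 2 and 2 were at 0.5 or below, beside 5.09 and 6.32% of all genes. These shares were thus not above the background. The median log2 ratio was -0.11 in OR1 (-0.7 under spike-in scaling) and -0.09 in OR2. BIRC3 (cIAP2), a TRAF-bound ubiquitin ligase, was at 13.8, 53.5 and 55.2 and dim in H1975. It was higher in both resistant lines, at least 4.44-fold and at least 3.91-fold (1.67 and 1.51 with normexp). MAP3K5 (ASK1), a stress kinase bound by TRAF2, was at 294, 25.2 and 117 and lowest in OR1 (0.0978 and 0.387). TAB3, a subunit of the TAK1 complex, was at 586, 231 and 288 (0.45 and 0.478), with 0.532 in OR2 under normexp, 0.504 in OR2 under spike-in scaling and 0.575 in OR1 with the median over probes. TRAF1 and CYLD were past 2 in OR2 alone, TRAF1 with 1.95 and 3.6 and CYLD with 1.92 and 2.25.

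The 9 NF-kappaB subunits and inhibitors were all detected in every line and 0 passed the ratio. NFKBIA, the inhibitor that NF-kappaB itself induces, was at 3973, 5731 and 6178 (1.64 and 1.51), and the median log2 ratio of the list was 0.33 and 0.07, with -0.27 in OR1 under spike-in scaling. Of 30 NF-kappaB target genes, 24 were detected, and they did not move 1 way. In both lines 3 of the 24 were past 2 (CCL2, CXCL2 and ICAM1), beside 5.09% of all genes. Another 3 of the 24 were at 0.5 or below in both (TNFAIP2, PLAU and MMP9), beside 6.32%. The median log2 ratio of the target list was -0.07 in OR1 and -0.3 in OR2. CCL2, a monocyte chemokine, was at 31.5, 833 and 369, highest in OR1 (30.2 and 11.4). CXCL2, a neutrophil chemokine, was at 56.9, 319 and 443 (6.39 and 7.57). ICAM1, a leukocyte adhesion molecule, was at 288, 952 and 985 (3.77 and 3.33). All 3 were lowest in H1975. TNFAIP2, a TNF-induced gene, was at 29752, 6188 and 10478 (0.237 and 0.343). PLAU, the urokinase plasminogen activator, was at 45562, 9338 and 16219 (0.234 and 0.346), and MMP9, a secreted gelatinase, at 434, 108 and 141 (0.285 and 0.317). These were highest in H1975 and lowest in OR1. TNFAIP3 (A20), which shuts off NF-kappaB signalling, was at 9.99, 15.0 and 22.2, with bounds of at least 1.36 and at least 1.72.

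**Figure D3:**
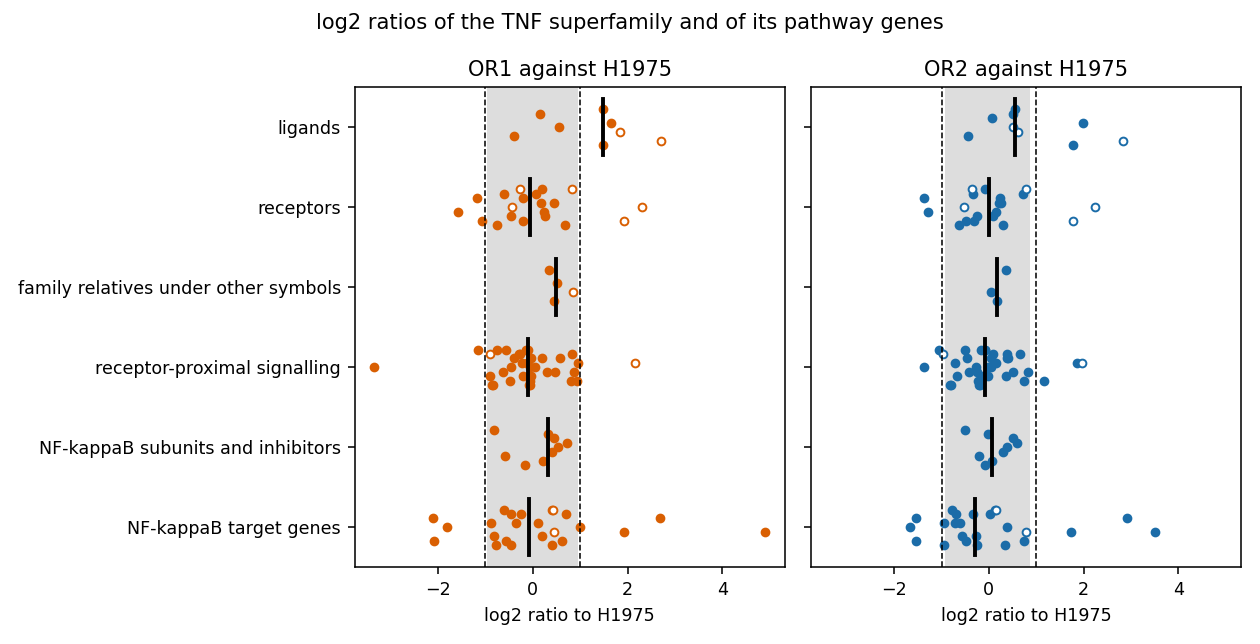
log2 ratio to H1975 in OR1 (left) and OR2 (right) of the ligands, the receptors and the 4 pathway lists; each point is a gene, open points are bounds, black lines are medians, the grey band runs from the 10th to the 90th percentile of all genes and dashed lines mark ratios of 2 and 0.5. The median of the ligands is 1.49 in OR1 and 0.54 in OR2, and those of the receptors are -0.06 and 0.0; with no background filter the ligand median in OR1 is 0.38, and under spike-in scaling that of the receptors in OR1 is -0.66.

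The size of the ratios of dim members depended on how background was treated. With normexp, here with an offset of 50 units, the direction was kept for each of the 10 members past the ratio in OR1 or OR2, but the ratios of LTB were 1.84 and 1.9, those of TNFRSF11B 1.72 and 1.63, those of TNFRSF9 1.53 and 1.41, those of TNFSF10 1.74 and 1.91 and those of TNFSF13 1.7 and 1.91, none of which reach 2. TNF in OR1 (1.5) and TNFRSF18 in OR2 (0.524) no longer passed either. TNFRSF12A stayed at 0.5 or below in both lines. Scaled on the spike-in probes, the median of all genes in OR1 moved by -0.62, CD70 and TNFSF13 in OR1 both had 1.86, and the decoy receptors' median in OR1 turned from 0.37 to -0.23.

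**Figure D4:**
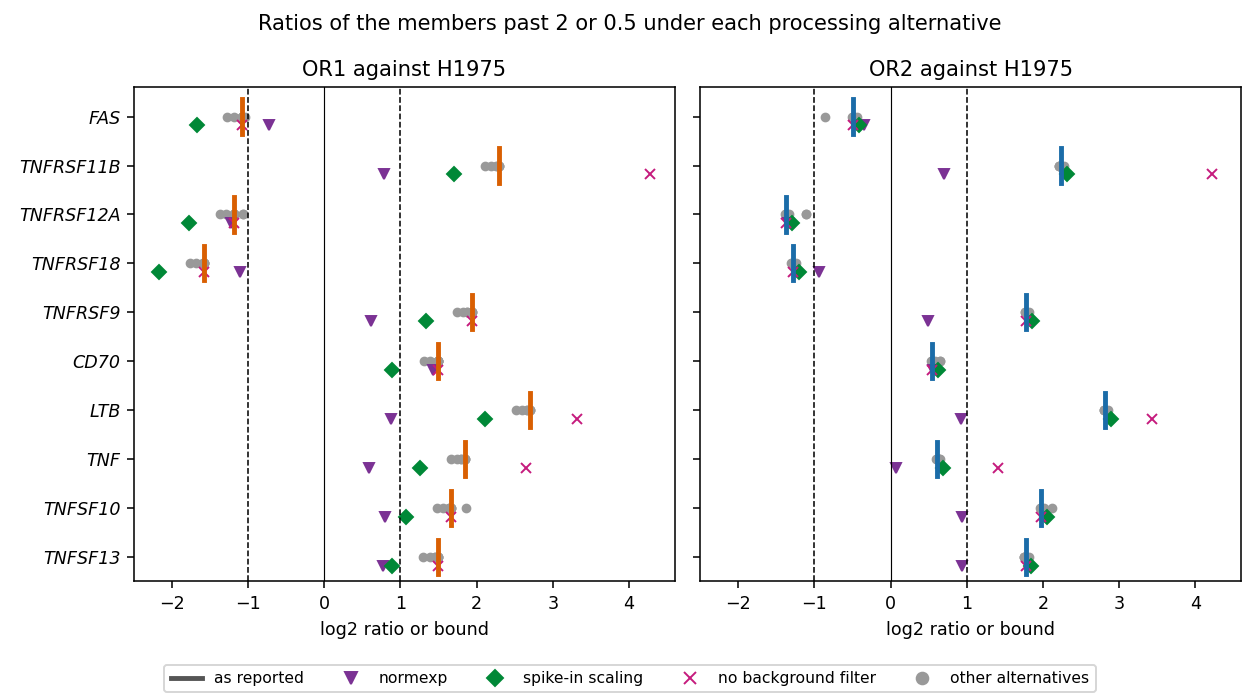
log2 ratio to H1975 in OR1 (left) and OR2 (right) of the 10 members past 2 or 0.5 in OR1, OR2 or both, as reported (vertical bars) and under each alternative; triangles are normexp, diamonds scaling on the spike-in probes, crosses no background filter and grey points the others. The normexp points of TNFRSF11B, TNFRSF9, LTB, TNF, TNFSF10 and TNFSF13 lie between 0 and 1, whereas TNFRSF12A stays below -1 in both lines.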

How the data were processed

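Total RNA of H1975, OR1 and OR2 was labelled with Cy3 and hybridised to Agilent SuperPrint G3 Human arrays, 1 per line and all on 1 slide. The authors deposited the scanner output, with background-corrected intensity (gProcessedSignal) made by Agilent Feature Extraction. The file headers name version 10.7.1.1 and the submitters' processing notes 9.5.1.1. They also deposited a normalized intensity table whose method is not given in the sources used here. Its values lay within a median of 0.0013 (absolute log2 difference) of quantile-normalized scanner values over 58200 probes, on a linear scale with a median of 9.51 per array.

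Control and outlier spots were left out, repeated spots averaged on the log2 scale, and each array scaled on the 75th percentile. A gene was read from its brightest probe. The positions are hg19, as in the files. A member was called at a ratio of 2 or above or 0.5 or below with the brighter side well above background. Error is the technical SD from the spot errors, since with 3 arrays in all the number of arrays limits the precision. Median technical SD of the log2 ratio over the detected members was 0.21 for each pair of lines. Accessions of 39 members matched RefSeq, each with the same symbol. Every member was named with its values or, if dim on all arrays, with the intensity range, and of each pathway list every gene past the ratio in both lines. A few further list genes, LTBR, CD40LG, TRAF1, CYLD, NFKBIA and TNFAIP3, were chosen after their values were seen. The members, lists and motifs were chosen with earlier results of these data known. Alternatives covered scaling, background, filters, the probe of a gene, the ratio and limma 3.58.1 in R 4.3.3. The code was checked on simulated data in which only genes detected on all 3 arrays were changed. That check set no change in a gene dim in H1975. Python 3.11.15, numpy 2.4.6, pandas 2.3.3 and matplotlib 3.10.9 were used.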

Additional observations from a re-analysis of the deposited data

Results flagged for a closer look

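CD40 and TNFRSF6B lay on opposite sides of H1975 in OR1 and OR2. For CD40, a receptor of antigen-presenting and epithelial cells, the ratio to H1975 was 1.14 in OR1 and 0.944 in OR2, and OR2 over OR1 was 0.825. For TNFRSF6B, a secreted decoy, it was 0.867 in OR1 and 1.17 in OR2, and OR2 over OR1 was 1.35. The placing of CD40 depended on scaling, with 0.757 in OR1 and 0.995 in OR2 under spike-in scaling, 1.0 and 0.97 with no scaling, and OR2 over OR1 at 1.31 and 0.967. TNFRSF6B kept its sides there (0.574 and 1.24, and 0.76 and 1.21). Each line had 1 array, so neither difference was tested, and the technical SD of both log2 ratios was near 0.2. The second CD40 probe also had its ratios on both sides of 1 (1.08 and 0.827), as did the second TNFRSF6B probe (0.763 and 1.05).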

How the results depend on the processing

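No ratio past the threshold changed its side of 1 under the alternatives that were run. With normexp, members past 2 numbered 1 in OR1, 0 in OR2 and 0 in both lines (7, 5 and 5 as reported; 3.59, 3.08 and 2.06% of all genes), members at 0.5 or below 1 in OR2 and 1 in both (2 and 2; 4.22 and 3.14% of all genes), members differing between OR2 and OR1 0, and receptor-proximal genes past the ratio 1 (3). With all 3 arrays required to be well above background, which left 21 members, those past 2 numbered 3, 2 and 2 (7.74, 6.67 and 4.78% of all genes). Members differing between OR2 and OR1 then numbered 0 (1). With no background filter, 10 of the 40 members were past 2 in OR2 and 9 in both, beside 8.51 and 4.75% of all 43316 genes; all genes past 2 in both went from 1141 to 2057. With spike-in scaling, which moved the median of all genes in OR1 by -0.62, 7 were at 0.5 or below in OR1 (3), beside 25.3% of all genes, 5 differed between OR2 and OR1, all higher in OR2, beside 18.8%, and the median log2 ratio of members in OR1 was -0.41 (0.18). At a ratio of 4 or 0.25, 2 members were past it upward in OR1, 2 in OR2 and 2 in both (2.12, 1.76 and 1.18% of all genes), 0 downward in OR1, OR2 or both, 0 differed between OR2 and OR1, 0 receptor-proximal genes passed and 2 target genes did (6). At 1.5 and its inverse, 8 members were up in OR2 (17.2% of all genes) and 5 down in OR1 (18.7%). Between OR2 and OR1 4 members differed, beside 8.71% of all genes up and 11.2% down. In both lines 10 receptor-proximal, 1 NF-kappaB subunit or inhibitor (0) and 10 target genes passed, beside 11.5% of all genes up and 13.2% down. limma was run with the 2 resistant lines taken as replicates against the lone H1975 array. It had 1 residual degree of freedom and took the spread of H1975 to be that of the others, so only log2 differences are given. The largest were 4.25 for TNFRSF11B and 3.37 for LTB. Both genes were undetected in H1975, and here their H1975 intensities were used as measured, without the bound.

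Over the named genes, 1029 of 1195 ratios moved by less than their technical SD and 24 of 408 calls were lost, 18 with normexp, 5 with spike-in scaling and 1 with the median over probes. The causes were not tested. No paired analysis was possible because each line has 1 array, and the slide could not be used as a block because all 3 arrays lie on 1 slide. Dim members are limited by signal over background. Their bounds rest on the lowest intensity called well above background.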

Other observations

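Several members lie side by side in the genome, and their 20 nearest detected genes were read as a description (hg19 probe positions, members included among the neighbours of each other). Around LTB and TNF on chromosome 6, within 101 kb, the median log2 ratio of the neighbours was 0.78 in OR1 and 0.42 in OR2, beside 0.04 and -0.06 over all genes. Around CD70 on chromosome 19, within 375 kb, it was 0.63 and 0.29. Around TNFRSF11B on chromosome 8, within 2718 kb, it was -0.89 and -0.67, whereas TNFRSF11B itself was at least 4.91-fold and at least 4.7-fold above H1975. Around TNFRSF12A on chromosome 16 it was -0.04 and -0.33, and around TNFRSF18 on chromosome 1 it was 0.29 and -0.05, with both genes at 0.5 or below in both lines.

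Of the 7 receptor genes on chromosome 1 between 1139819 and 12253051, 6 were detected, TNFRSF9 was past 2 and TNFRSF18 at 0.5 or below in both lines. Over all genes 5.09% were past 2 and 6.32% at 0.5 or below in both. The 4 TNFRSF10 genes on chromosome 8 between 22877776 and 23049312 were all well above background, and 0 passed the ratio in either line. Over all genes 9.17% were past 2 and 9.58% at 0.5 or below in OR1, and 7.72 and 8.7% in OR2. Counts of so few genes are little to go by.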
